A study of Mus musculus with 9 samples.

Results

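Imprinted genes were described in ovulated mouse eggs at metaphase II (MII), the stage of the second meiotic division at which the egg awaits fertilization. The set was chosen by name: 42 genes with known parent-of-origin expression in mouse, of which 14 are expressed from the maternal allele in other tissues, 24 from the paternal allele, and 4 (H13, Blcap, Inpp5f and Gnas) from an allele that depends on the transcript isoform. Imprinting of some of them, among them Copg2, Asb4 and Inpp5f, also depends on the tissue. The tables listed 40 of them among 30153 genes, and Mkrn3 and Peg12, both paternally expressed, were not listed. All eggs came from 4-week-old females of mixed genetic background and one genotype, Sycp3CreERT2/+; Rosa26nT-nG/+, in which a tamoxifen-inducible Cre made from the meiotic gene Sycp3 can switch a nuclear reporter from tdTomato (RFP) to GFP. Females received 5 IU of pregnant mare serum gonadotropin and, after 48 h, 5 IU of human chorionic gonadotropin, and eggs were taken from the oviduct 13 h later, treated with hyaluronidase to remove the surrounding cumulus cells and picked by hand for their fluorescence. The groups were GFP High (15 to 16 eggs per pool), GFP Low (49 to 57) and RFP (87 to 100), with 3 libraries each. Nothing in the labels says whether the pools of a group came from separate females, so p-values measure only the spread between these libraries. Every group, RFP included, carries the Cre and the reporter, and the tamoxifen treatment is not given in the sources used here. Where 3 values are given for a group, they are in the order of replicates 1, 2 and 3.

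Genomic imprinting makes a gene active on 1 parental chromosome and silent on the other. At most imprinted loci the difference starts as DNA methylation laid down in only 1 germ line. A maternal methylation mark is set in the growing oocyte, usually over the promoter of a paternally expressed gene, and a paternal mark is set in the male germ line. A few genes, among them Gab1, Sfmbt2, Jade1 and Smoc1, are instead silenced on the maternal chromosome by the histone mark H3K27me3 deposited in the oocyte. The MII egg does not transcribe, so its RNA is what was stored during growth, when these marks were being set. The loci are known for control of fetal and placental growth, and several encode noncoding RNAs that silence neighbouring genes in cis.

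The promoters of 4 paternally expressed genes are shown because they belong to genes with unlike levels, from 13.1 FPKM (counts per length and library size) for Mest through 2.58 for Plagl1 and 0.428 for Nap1l5 to 0.0237 for Nnat, and because each holds the recognition motif of ZFP57, the zinc finger protein that protects methylated imprints after fertilization. Each line is a window of 300 bases from RefSeq on GRCm38.p6, 250 bases before to 50 after an annotated start, 5′ to 3′ on the gene's strand, with the motif TGCCGC, or GCGGCA where it lies on the other strand, in capitals.
Mest: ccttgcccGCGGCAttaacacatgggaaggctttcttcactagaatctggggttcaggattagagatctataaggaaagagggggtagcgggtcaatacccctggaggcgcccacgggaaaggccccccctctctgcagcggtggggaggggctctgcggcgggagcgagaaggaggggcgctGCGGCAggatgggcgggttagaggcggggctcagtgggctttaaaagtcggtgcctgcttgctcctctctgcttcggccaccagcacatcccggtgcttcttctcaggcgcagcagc
Plagl1: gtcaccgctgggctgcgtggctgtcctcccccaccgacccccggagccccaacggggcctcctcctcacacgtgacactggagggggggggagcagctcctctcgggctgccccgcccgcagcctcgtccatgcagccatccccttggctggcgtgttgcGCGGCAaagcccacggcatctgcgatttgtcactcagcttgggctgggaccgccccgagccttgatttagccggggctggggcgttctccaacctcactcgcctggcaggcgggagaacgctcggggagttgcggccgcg
Nap1l5: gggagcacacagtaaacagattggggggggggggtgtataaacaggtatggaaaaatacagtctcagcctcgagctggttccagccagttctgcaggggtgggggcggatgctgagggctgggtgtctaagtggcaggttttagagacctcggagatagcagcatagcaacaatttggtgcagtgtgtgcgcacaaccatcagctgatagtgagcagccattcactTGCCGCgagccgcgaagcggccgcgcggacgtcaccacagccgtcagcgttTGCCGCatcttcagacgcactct
Nnat: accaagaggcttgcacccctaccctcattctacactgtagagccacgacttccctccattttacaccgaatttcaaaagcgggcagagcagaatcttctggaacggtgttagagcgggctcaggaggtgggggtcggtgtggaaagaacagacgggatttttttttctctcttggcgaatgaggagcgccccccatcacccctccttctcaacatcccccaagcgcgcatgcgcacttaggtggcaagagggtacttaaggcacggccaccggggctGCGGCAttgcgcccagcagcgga
The windows lie at chr6:30737800-30738099 on the plus strand for Mest, chr10:13090582-13090881 on the plus strand for Plagl1, chr6:58907077-58907376 on the minus strand for Nap1l5 and chr2:157559828-157560127 on the plus strand for Nnat. Mest and Nap1l5 have 2 copies of the motif each, and Plagl1 and Nnat have 1. RefSeq windows were matched by symbol for 36 of the 42 genes, and the window with the most CpG was taken for each. The motif, searched on both strands, was in 11 of these 36 windows (30.6%), against 12.2% of the windows of 27025 genes chosen in the same manner. Imprinted windows were also richer in CpG, with a median of 17 against 8, and the motif itself contains a CpG. It was present in 8 of 21 windows of genes at 1 CPM or more and in 3 of 15 windows of the others. By allele, it was in 5 of 12 windows of maternally expressed genes and 6 of 20 of paternally expressed genes. Of the windows of genes with isoform-dependent alleles, 0 of 4 held it. These matches are letters in a window, not measured binding sites.

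The libraries held 19381677 to 27746256 counts, so that 1 CPM (counts scaled to the library size, with TMM factors over all 9 libraries) rests on about 19.4 to 27.7 reads. The detection limit was set at 3 counts, or about 0.108 to 0.155 CPM of the library total before TMM scaling, for counting error only. All 12 oocyte markers were present in every library, at 10990 to 13350 CPM in sum. Of the 16 cumulus and granulosa markers, whose cells surround the egg, 2 to 13 were at 0 in a library. Their summed level was 43.7, 4.27 and 6.97 CPM in the GFP High libraries, 45.6, 4.35 and 12.3 CPM in the GFP Low libraries and 21.2, 63.9 and 6.64 CPM in the RFP libraries. The markers of blood, endothelium, stroma and epithelium summed to 38.5 to 59.4 CPM, mostly Pecam1, with Hba-a1 and Hbb-bs not listed. In pooled eggs, fewer cells that carry a transcript and less of it per cell cannot be told apart.

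Transcripts of genes expressed from the maternal allele elsewhere were detected more often than those of paternally expressed genes. Of the 42 genes, 25 had a mean of 1 CPM or more over the 9 libraries. That is 62.5% of the 40 listed, while 42.5% of all listed genes reached this level. Among protein-coding genes the shares were closer, at 64.7% of 34 imprinted genes and 60.1% of 18483 genes, with median levels per length of 1.12 and 0.835 FPKM. By allele, 11 of 14 maternally expressed genes (78.6%), 10 of 24 paternally expressed genes (41.7%) and all 4 genes with isoform-dependent alleles reached 1 CPM. Their median levels per length were 2.23, 0.142 and 11.9 FPKM in the same order, and the median ran from 1.36 to 2.81 FPKM over the libraries for the maternally expressed genes and from 0.0470 to 0.198 for the paternally expressed ones. These ranges did not overlap. Without Copg2 and Asb4, 9 of 12 maternally expressed genes (75.0%) reached 1 CPM and their median level was 0.694 FPKM (0.455 to 1.07 over the libraries, still above the paternally expressed genes). The order of these classes held in each library, as a description of a chosen list with no test. The order without further genes of tissue-dependent imprinting was not examined, so it rests on the class given to each gene.

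The kind of mark divided the genes further. Of 31 genes at loci with a maternal methylation mark, 22 reached 1 CPM, against 2 of 7 at loci with a paternal mark (Meg3 and Rian) and 1 of 4 of the H3K27me3 genes (Gab1). Within loci of the maternal mark, 9 of 10 maternally expressed genes and 9 of 17 paternally expressed genes reached 1 CPM, with median levels per length of 4.16 and 0.428 FPKM. The 7 genes at loci with a paternal mark had at most 0.115 FPKM, whichever allele they use elsewhere.

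**Figure D1:**
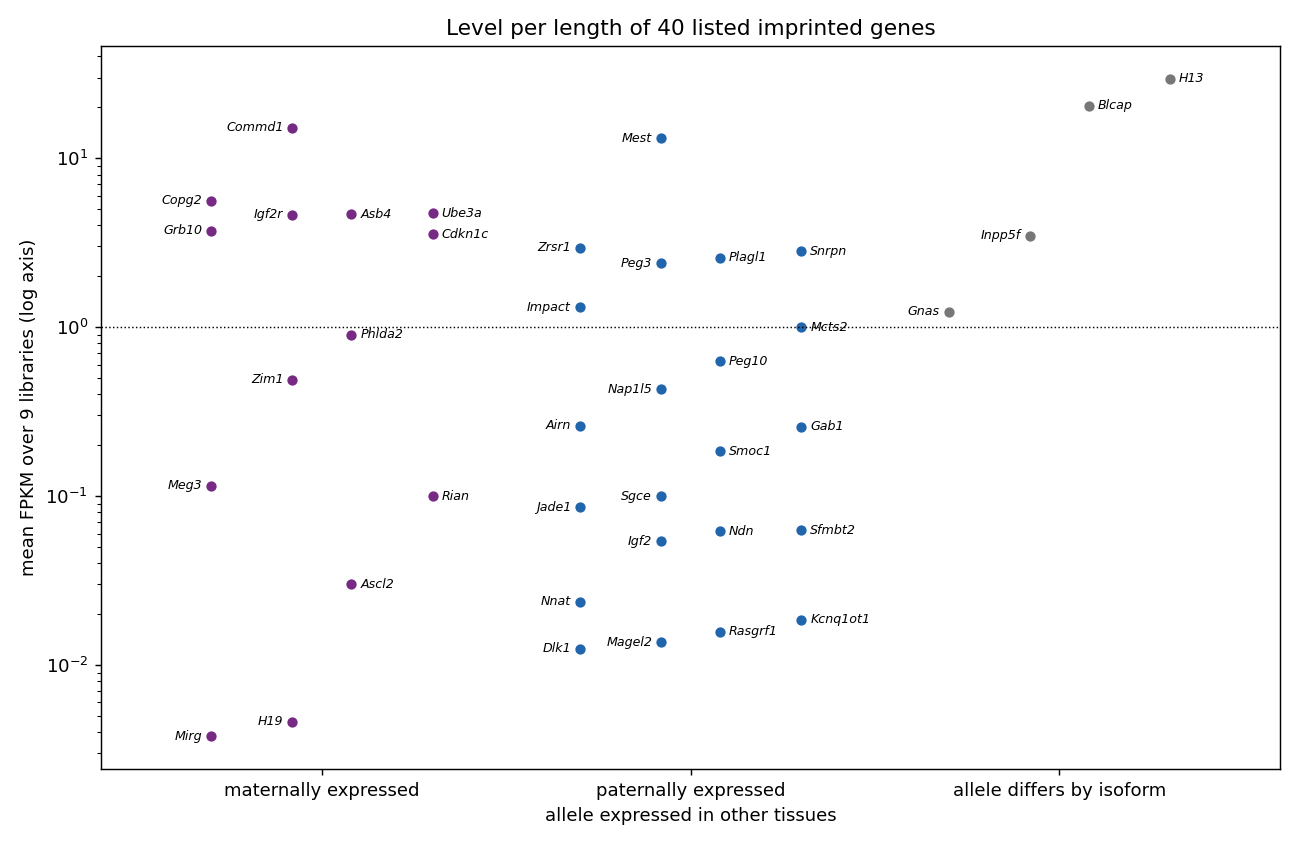
Mean level per length (FPKM, log axis) over the 9 libraries of each of the 40 listed imprinted genes, 1 point per gene, placed by the allele expressed in other tissues. The dotted line marks 1 FPKM. Points are spread sideways for legibility. Maternally expressed genes reach 15.1 FPKM (Commd1) and paternally expressed ones 13.1 FPKM (Mest), but 12 of the 22 listed paternally expressed genes had a mean under 1 CPM.

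The 4 genes with isoform-dependent alleles included H13 and Blcap, the highest of the set per length. H13 (ENSMUSG00000019188, chromosome 2, 152669461 to 152708670, plus strand), which encodes the signal peptide peptidase, had 241, 344 and 238 CPM in the GFP High libraries, 226, 258 and 287 CPM in the GFP Low libraries and 295, 235 and 256 CPM in the RFP libraries. All 9 libraries lay between 226 and 344 CPM, with GFP High 2 the highest. Blcap (ENSMUSG00000067787, chromosome 2, 157556362 to 157571274, minus strand), a small membrane protein, had 60.9, 39.9 and 76.7 CPM in the GFP High libraries, 65.8, 57.3 and 67.8 CPM in the GFP Low libraries and 71.03, 68.5 and 57.2 CPM in the RFP libraries. GFP High held both its lowest and its highest library. Inpp5f (ENSMUSG00000042105, chromosome 7, 128611328 to 128696425, plus strand), a phosphoinositide phosphatase, had 24.1, 25.1 and 33.3 CPM in the GFP High libraries, 27.02, 33.5 and 31.5 CPM in the GFP Low libraries and 29.6, 24.6 and 34.02 CPM in the RFP libraries. Its groups overlapped in every comparison. On the per-length scale these genes stood at 29.5, 20.4 and 3.47 FPKM on average. Gene-level counts do not separate their isoforms, so the level of the imprinted transcript alone is not given by these values.

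Both H13 and Blcap host an imprinted gene within their introns, and the guests differed from the hosts. Mcts2 (ENSMUSG00000042814, chromosome 2, 152687035 to 152687946, plus strand), a retrotransposed copy of the X-linked gene Mcts1 inside H13, had 0.999 FPKM, and H13 was 12.9 to 145.0 times higher per length over the 9 libraries (median 29.2). Nnat (ENSMUSG00000067786, chromosome 2, 157560078 to 157562522, plus strand), a brain proteolipid gene inside Blcap, had 0 counts in 8 libraries and 9 counts in RFP 2, the library with the highest cumulus marker sum (63.9 CPM). Whether those cells contributed was not tested. Nap1l5 (ENSMUSG00000055430, chromosome 6, 58905233 to 58907076, minus strand), a nucleosome assembly protein-like gene inside Herc3, had 0 counts in all 3 GFP High libraries, 32, 0 and 22 counts in the GFP Low libraries and 13, 97 and 0 counts in the RFP libraries. Its counts were at 0 in 5 of the 9 libraries and highest in RFP 2.

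The coding sequences of Mcts2 and its parent are shown because a retrocopy can share reads with its source. They are the first 150 of 543 coding bases from GENCODE M21 transcripts, 5′ to 3′, with positions that differ between the copies in capitals.
Mcts2: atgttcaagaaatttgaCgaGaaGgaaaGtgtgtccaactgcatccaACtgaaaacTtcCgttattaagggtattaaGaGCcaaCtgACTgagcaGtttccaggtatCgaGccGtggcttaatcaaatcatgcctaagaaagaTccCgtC
Mcts1: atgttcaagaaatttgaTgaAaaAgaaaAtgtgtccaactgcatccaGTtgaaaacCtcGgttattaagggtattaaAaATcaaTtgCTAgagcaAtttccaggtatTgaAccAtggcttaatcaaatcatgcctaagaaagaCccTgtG
There are 22 differences in this stretch and 81 over the whole coding sequence (85.1% identity). Mcts1 itself had 0.566 FPKM, and the ratio of Mcts2 to Mcts1 per length ran from 0.287 in GFP High 2 to 3.02 in GFP High 3, with a median of 1.93. Mcts2 also resembles Gm8328 (94.5% over 419 bases), which was not listed, so its level is uncertain.

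Among the maternally expressed genes, 7 stood at 5 CPM or more. Ube3a (ENSMUSG00000025326, chromosome 7, 59228750 to 59311536, plus strand), an E3 ubiquitin ligase, had 90.5, 92.6 and 95.96 CPM in the GFP High libraries, 96.3, 109 and 84.4 CPM in the GFP Low libraries and 116, 93.3 and 107 CPM in the RFP libraries. Commd1 (ENSMUSG00000051355, chromosome 11, 22896136 to 22982382, minus strand), which takes part in copper handling and NF-kB control, had 109, 113 and 77.5 CPM in the GFP High libraries, 94.1, 82.03 and 79.6 CPM in the GFP Low libraries and 91.3, 99.1 and 69.9 CPM in the RFP libraries. Neither gene separated any pair of groups, and per length Commd1 (15.1 FPKM) stood above Ube3a (4.71 FPKM). Igf2r (ENSMUSG00000023830, chromosome 17, 12682406 to 12769664, minus strand), the receptor that clears the growth factor IGF2, had 34.7, 61.4 and 31.2 CPM in the GFP High libraries, 44.97, 39.01 and 49.8 CPM in the GFP Low libraries and 44.2, 33.7 and 51.1 CPM in the RFP libraries. GFP High 2 was the highest library and GFP High 3 the lowest. Grb10 (ENSMUSG00000020176, chromosome 11, 11930508 to 12038683, minus strand), an adaptor that restrains insulin and IGF receptor signalling, had 33.1, 34.6 and 29.8 CPM in the GFP High libraries, 40.5, 35.8 and 35.5 CPM in the GFP Low libraries and 31.9, 34.4 and 30.5 CPM in the RFP libraries. All GFP Low libraries lay above those of GFP High and RFP, yet the highest was only 1.36 times the lowest, the narrowest range of the 16 genes at 5 CPM or more.

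Copg2 (ENSMUSG00000025607, chromosome 6, 30747554 to 30896794, minus strand), a subunit of the COPI vesicle coat, had 38.99, 29.9 and 26.1 CPM in the GFP High libraries, 35.2, 24.5 and 25.02 CPM in the GFP Low libraries and 24.7, 28.4 and 27.9 CPM in the RFP libraries. Asb4 (ENSMUSG00000042607, chromosome 6, 5383386 to 5433022, plus strand), a substrate adaptor of ubiquitin ligases, had 21.4, 25.6 and 17.5 CPM in the GFP High libraries, 18.3, 15.5 and 18.1 CPM in the GFP Low libraries and 18.6, 14.2 and 16.9 CPM in the RFP libraries. GFP High 2 was the highest for Asb4, and its groups overlapped. Cdkn1c (ENSMUSG00000037664, chromosome 7, 143458339 to 143461050, minus strand), the cyclin-dependent kinase inhibitor p57, had 5.33, 11.9 and 3.37 CPM in the GFP High libraries, 9.85, 8.24 and 6.42 CPM in the GFP Low libraries and 7.43, 6.93 and 6.31 CPM in the RFP libraries. The 3 GFP High libraries spanned the whole range for Cdkn1c, 3.53-fold from the lowest to the highest, the widest of the 16. The other maternally expressed genes were lower: Zim1, a zinc finger gene, had 0.487 FPKM and Phlda2, a brake on placental growth, 0.902 FPKM, while Ascl2, a trophoblast transcription factor, had 0.0301 FPKM and was at 0 in 6 libraries.

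Paternally expressed genes at 5 CPM or more numbered 5, all at loci with a maternal methylation mark. Mest (ENSMUSG00000051855, chromosome 6, 30723547 to 30748465, plus strand), a hydrolase-fold protein of growing mesoderm, had 62.3, 33.8 and 61.6 CPM in the GFP High libraries, 52.96, 53.8 and 54.4 CPM in the GFP Low libraries and 48.4, 52.6 and 50.9 CPM in the RFP libraries. It varied little in GFP Low and RFP, and GFP High 2 was the lowest library. Peg3 (ENSMUSG00000002265, chromosome 7, 6703892 to 6730431, minus strand), a large zinc finger protein, had 29.8, 19.8 and 31.5 CPM in the GFP High libraries, 31.7, 41.8 and 33.5 CPM in the GFP Low libraries and 27.2, 32.6 and 41.00 CPM in the RFP libraries. Its GFP High libraries all lay below those of GFP Low. Plagl1 (ENSMUSG00000019817, chromosome 10, 13060504 to 13131694, plus strand), a zinc finger transcription factor of an imprinted growth network, had 15.8, 32.5 and 11.1 CPM in the GFP High libraries, 22.9, 27.5 and 17.1 CPM in the GFP Low libraries and 16.9, 18.3 and 21.2 CPM in the RFP libraries. GFP High again held its lowest and its highest library.

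Zrsr1 (ENSMUSG00000044068, chromosome 11, 22972005 to 22976496, plus strand), a retrocopy of the X-linked splicing gene Zrsr2 that lies inside Commd1, had 8.91, 13.7 and 10.97 CPM in the GFP High libraries, 14.9, 12.6 and 14.6 CPM in the GFP Low libraries and 14.8, 14.9 and 15.3 CPM in the RFP libraries. The RFP libraries were nearly equal and all above those of GFP High. Its parent Zrsr2 had 46.2 FPKM, 12.8 to 26.1 times Zrsr1 per length. Snrpn (ENSMUSG00000102252, chromosome 7, 59982495 to 60140219, minus strand), the splicing protein SmN of the Prader-Willi domain, had 5.73, 6.14 and 6.52 CPM in the GFP High libraries, 6.60, 7.90 and 4.47 CPM in the GFP Low libraries and 4.94, 6.84 and 6.08 CPM in the RFP libraries. The groups overlapped in full. Impact, which restrains the translation kinase GCN2, was just below this level with 8.36, 3.46 and 0.629 CPM in the GFP High libraries, 6.55, 5.23 and 2.88 CPM in the GFP Low libraries and 3.43, 5.62 and 4.67 CPM in the RFP libraries, and its lowest and highest libraries were both GFP High.

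**Figure D2:**
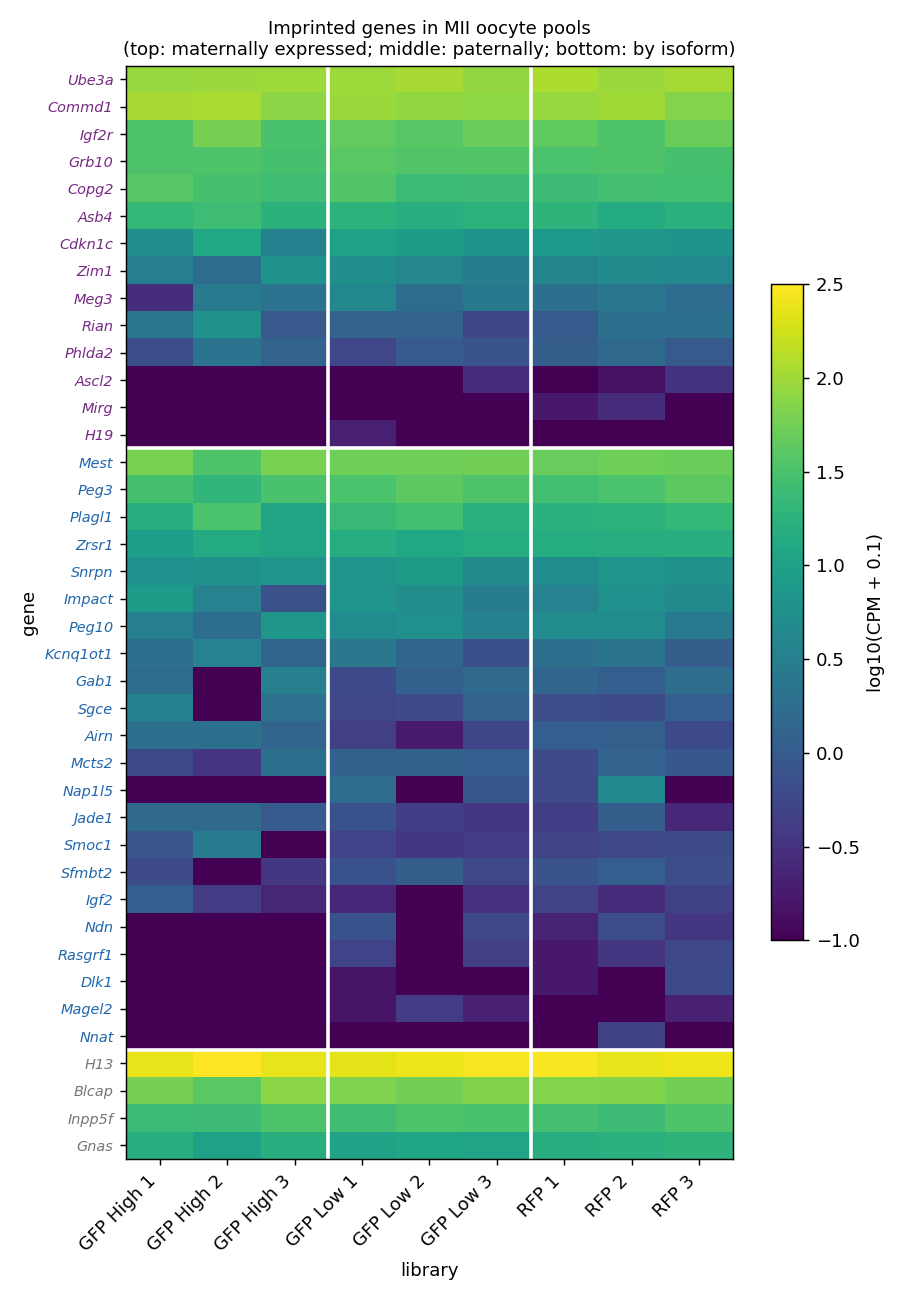
Level of each listed imprinted gene (rows, by allele class and falling mean) in each of the 9 libraries (columns) as log10(CPM + 0.1), with white lines between groups and classes. The upper rows of each class are even across libraries. The 9 genes at 0 in all 3 GFP High libraries are dark at the left, in lower rows of the maternally and paternally expressed classes.

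The neighbours at a locus were often stored at unequal levels per length. Igf2r was 7.21 to 48.1 times Airn, the paternally expressed noncoding RNA that silences Igf2r in cis, in the 8 libraries with more than 3 counts of Airn, and GFP Low 2 had only 2 counts. Commd1 was 3.45 to 9.24 times Zrsr1, and Asb4 was 4.20 to 24.8 times Peg10, a retrotransposon-derived placental gene at 0.628 FPKM. At those loci the maternally expressed gene was the higher in all 9 libraries. The paternally expressed gene was the higher at 2 others, where Peg3 was 3.19 to 7.39 times Zim1 and Mest 1.47 to 3.06 times Copg2. Ube3a was 1.43 to 2.45 times Snrpn, its paternally expressed partner. All these ratios depend on the length used, which is that of all annotated exons of a gene together. It was 20626 bases for Ube3a and 2159 for Snrpn, whose mean levels without length were 98.3 and 6.14 CPM.

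Some pairs overlap in their exons, and whether the counting used strand is not given in the sources used here. Mest and Copg2 share 912 exonic bases on opposite strands, 23.1% of the exonic length of Mest and 17.8% of that of Copg2. Zrsr1 shares 9.17% of its length with Commd1. For Ube3a 27.3% is shared, including with the antisense transcript Snhg14, and for Cdkn1c 30.7% with Gm44732 on the opposite strand. For Snrpn 34.1% is shared, mainly with Gm38393 and Snurf on the same strand. For Igf2 64.5% is shared, including with Gm49394 on the same strand. Counting by strand would not separate the reads of genes on the same strand. The exons of Igf2r, Airn, Grb10, Peg3 and Asb4 overlap no other gene. Snrpn also has a close copy, Gm5802 (95.3% over 700 bases), which had 0 to 3 counts per library.

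The classical growth pair H19 and Igf2 had few counts. H19, a noncoding RNA abundant in fetal tissue, was at 0 in 8 libraries and had 2 counts in GFP Low 1, under the limit of 3. Igf2, the fetal growth factor, had 28, 8 and 3 counts in the GFP High libraries, 3, 0 and 6 counts in the GFP Low libraries and 11, 4 and 10 counts in the RFP libraries. How reads in the exonic bases that Igf2 shares with other genes were counted is not given, so its level is uncertain. Of the noncoding RNAs at the Dlk1-Meg3 locus, Meg3 and Rian had means of 0.115 and 0.0997 FPKM, and Mirg had at most 4 counts in any library. Dlk1, a Notch ligand-like protein from the same locus, was at 0 in 6 libraries. Kcnq1ot1, the noncoding RNA that silences the domain of Cdkn1c and Phlda2 in cis, had 0.0186 FPKM over its 93092 exonic bases, with 0.613 to 3.46 CPM in the 9 libraries.

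Several other paternally expressed genes were also low. Ndn and Magel2, MAGE family genes of the Prader-Willi domain, had 0.0618 and 0.0136 FPKM, and the exchange factor Rasgrf1 had 0.0158 FPKM. The H3K27me3 genes Gab1 (a docking protein), Smoc1 (a secreted calcium-binding protein), Jade1 (a histone acetyltransferase subunit) and Sfmbt2 (a Polycomb protein) had 0.257, 0.184, 0.0861 and 0.0629 FPKM. In sum they reached 4.42, 4.11 and 4.40 CPM in the GFP High libraries, 2.27, 2.67 and 2.52 CPM in the GFP Low libraries and 2.72, 3.47 and 3.01 CPM in the RFP libraries. The GFP High sums lay above all others, although not through the same genes: Gab1 was at 0 in GFP High 2, where Smoc1 was highest, and Smoc1 was at 0 in GFP High 3, where Gab1 was highest. Only Jade1 of the 4 had its GFP High libraries all above those of GFP Low. Sfmbt2 went the other way, with 0.548, 0 and 0.270 CPM in the GFP High libraries, all below the 0.679, 1.01 and 0.594 CPM of RFP. How often sums over so few low genes separate groups was not tested.

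Rare transcripts dropped out most often in GFP High. Of the 15 listed imprinted genes under 1 CPM, 9 (60.0%) were at 0 in all 3 GFP High libraries: Nap1l5, Ndn, Rasgrf1, Dlk1, Magel2, Ascl2, Nnat, Mirg and H19. The counts were 2 in GFP Low (13.3%) and 1 in RFP (6.67%). Over all 17346 listed genes under 1 CPM the shares were 56.1% for GFP High, 25.0% for GFP Low and 22.8% for RFP, so the imprinted genes were near the background in GFP High. The GFP High pools held 15 to 16 eggs, and pool size and group cannot be told apart here.

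GFP High was compared with RFP to ask whether eggs with the strongest recombined reporter differ from those with an unrecombined one. Of the imprinted genes, 30 had enough counts to be tested and 0 passed an adjusted p of 0.05 in edgeR's quasi-likelihood test, where 2 of 14829 genes did (0.0135%). At an unadjusted p under 0.05 the imprinted genes again numbered 0, against 4.09% of all genes. DESeq2 also called 0 of them and gave 2 an unadjusted p under 0.05, and limma-voom gave 0 for both. The median log2 fold change of the 30 was 0.05, against -0.0056 over all genes tested, with 18 of 30 higher in GFP High. Among genes at 5 CPM or more the largest differences were -0.42 for Zrsr1 (SE 0.25) and 0.38 for Asb4 (SE 0.22). Groups without overlap between their libraries were found for 3 of 30 (10%: Airn higher, Sfmbt2 and Zrsr1 lower in GFP High), close to the 11.8% of all genes tested.

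In GFP Low against RFP, 31 imprinted genes were tested and 0 were called by edgeR, where 3 of 15199 genes passed (0.0197%). An unadjusted p under 0.05 was reached by 1 of them, Gnas, against 2.62% of all genes. DESeq2 and limma-voom called 0 as well, each with 1 gene at an unadjusted p under 0.05. The median log2 fold change was 0.05, against -0.0041 over all genes tested, and 16 of 31 were higher in GFP Low. The groups did not overlap for 6 of 31 (19.4%), against 7.68% of all genes tested. These were Grb10 and Mest, higher in GFP Low, and Airn, Gnas, Phlda2 and Smoc1, lower. Their log2 fold changes were 0.21 (SE 0.12) for Grb10, 0.09 (SE 0.10) for Mest, -1.56 (SE 0.80) for Airn, -0.61 (SE 0.16) for Gnas, -0.70 (SE 0.59) for Phlda2 and -0.53 (SE 0.77) for Smoc1, and none passed the adjusted test.

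Gnas (ENSMUSG00000027523, chromosome 2, 174284320 to 174346744, plus strand) encodes the stimulatory G protein subunit that raises cAMP, the signal that holds oocytes in meiotic arrest, and also the imprinted Nesp and XLas transcripts. It had 16.1, 10.1 and 15.96 CPM in the GFP High libraries, 10.4, 11.4 and 11.1 CPM in the GFP Low libraries and 15.2, 16.5 and 18.7 CPM in the RFP libraries. All 3 GFP Low libraries lay below all 3 RFP libraries, and GFP High 2 was below every GFP Low library while GFP High 1 and 3 lay among RFP. Against RFP the log2 fold change of GFP Low was -0.61 (SE 0.16, unadjusted p = 0.00259, edgeR adjusted p = 1.00), and across fits without 1 library it ran from -0.68 to -0.53. In GFP High it was -0.25 (SE 0.25) against RFP and 0.35 (SE 0.27) against GFP Low. The count covers all isoforms, and 21.96% of its exonic length is shared with Gm20721 and Nespas on the opposite strand.

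GFP High and GFP Low were compared to ask whether reporter strength goes with these transcripts. Of 30 imprinted genes tested, edgeR called 0, as it did over all 14785 genes (0%). Airn alone had an unadjusted p under 0.05, where 3.77% of all genes did. DESeq2 called 0 with 3 at an unadjusted p under 0.05, and limma-voom 0 with 1. The median log2 fold change was -0.05, against -0.0048 over all genes, with 13 of 30 higher in GFP High. The groups did not overlap for 4 of 30 (13.3%), against 11.5% of all genes tested: Airn and Jade1 were higher in GFP High, and Grb10 and Peg3 lower. Jade1 had 41, 37 and 20 counts in the GFP High libraries and 13, 9 and 7 counts in the GFP Low libraries, with a log2 fold change of 1.62 (SE 1.07). Peg3 and Grb10 differed by -0.40 (SE 0.22) and -0.19 (SE 0.16).

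Airn (ENSMUSG00000078247, chromosome 17, 12741311 to 12860136, plus strand) had 51, 46 and 29 counts in the GFP High libraries, 7, 2 and 12 counts in the GFP Low libraries and 27, 24 and 14 counts in the RFP libraries. In CPM these are 1.86, 1.87 and 1.30 CPM in the GFP High libraries, 0.361, 0.0763 and 0.432 CPM in the GFP Low libraries and 1.02, 1.05 and 0.519 CPM in the RFP libraries. The 3 groups did not overlap in any pair, with GFP Low the lowest and GFP High the highest, and the 2 counts in GFP Low 2 were under the detection limit. The log2 fold change of GFP High over GFP Low was 2.52 (SE 1.11, unadjusted p = 0.0464, edgeR adjusted p = 0.998). Its unadjusted p was 0.0497 without GFP High 3 and 0.0550 to 0.152 without any other single library. The adjusted p of Airn ran from 0.488 to 1.00 across those fits. For Igf2r, which Airn silences in cis, the log2 fold changes were all smaller than their standard errors, at -0.01 (SE 0.26), 0.05 (SE 0.16) and -0.07 (SE 0.24) for the High to RFP, Low to RFP and High to Low comparisons. The library lowest in cumulus markers also had the least Airn in GFP Low (replicate 2) and in RFP (replicate 3). In GFP High, the libraries lowest (replicate 2) and highest (replicate 1) in cumulus markers had nearly equal Airn, at 1.87 and 1.86 CPM. The part of such cells in the Airn values was not tested.

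**Figure D3:**
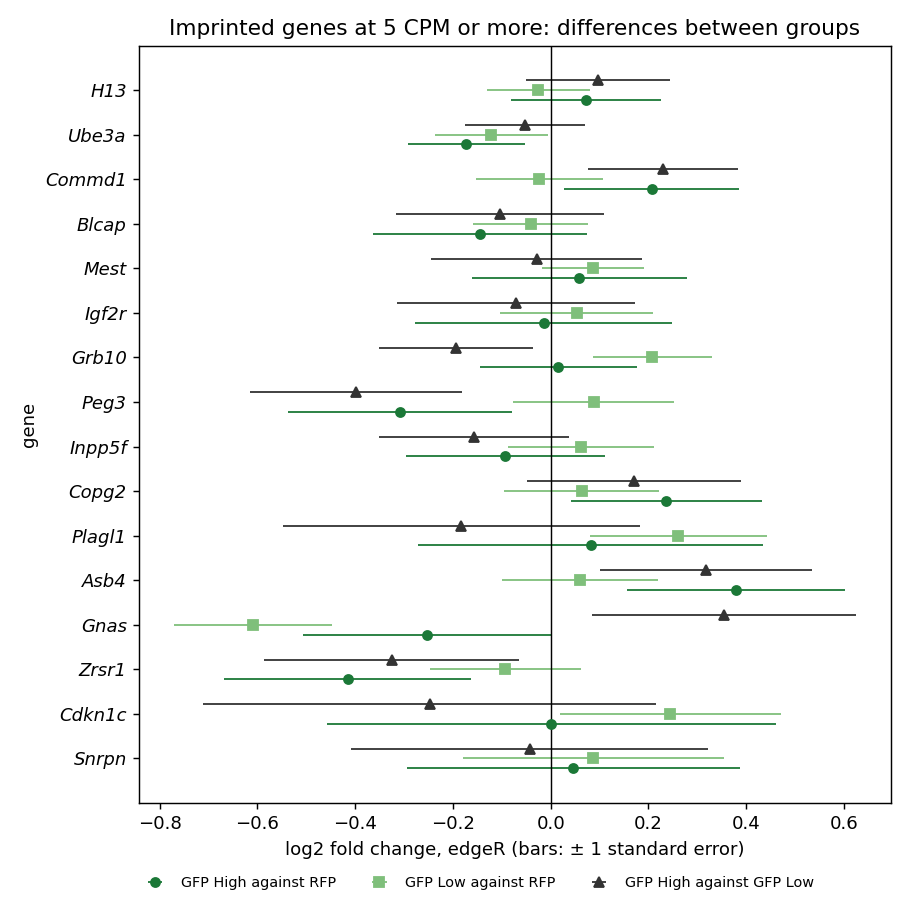
Log2 fold change (edgeR, bars ± 1 standard error) of the 16 imprinted genes at 5 CPM or more in GFP High against RFP, GFP Low against RFP and GFP High against GFP Low. The comparisons share libraries. Points lie between -0.61 (Gnas, GFP Low against RFP) and 0.38 (Asb4, GFP High against RFP), and no gene passed an adjusted p of 0.05.

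**Figure D4:**
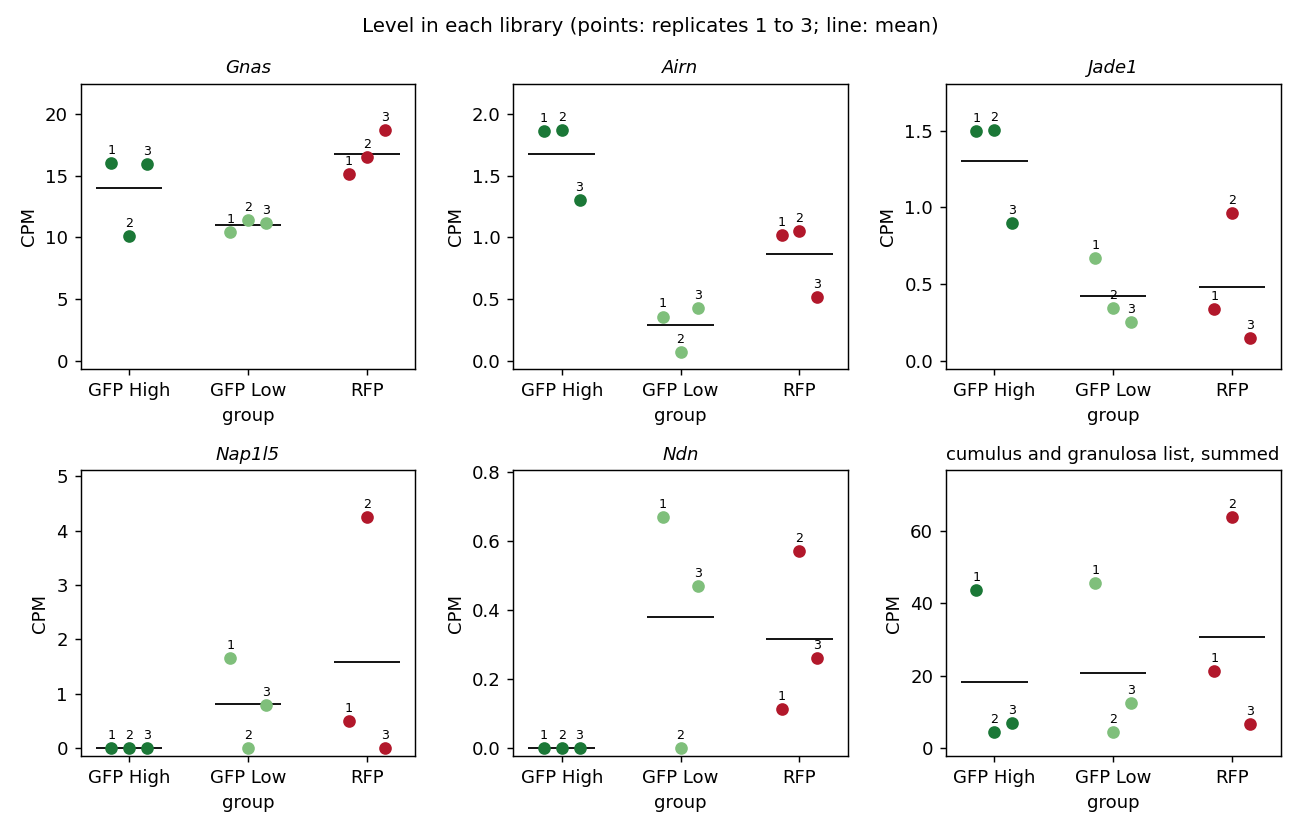
CPM in each library (points, numbered by replicate) with the group mean (line) for Gnas, Airn, Jade1, Nap1l5 and Ndn, and the summed CPM of the 16 cumulus and granulosa markers. Airn separates all 3 groups, Gnas separates GFP Low from RFP, and Nap1l5 and Ndn are at 0 in GFP High.

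The precision differed with level and group. edgeR's common coefficient of variation between replicates was 0.475 and 0.487 for the comparisons with GFP High and 0.247 for GFP Low against RFP. For the 16 genes at 5 CPM or more, the highest library was 1.36 to 3.53 times the lowest (median 1.78). With the genes' standard errors, a difference that misses the threshold does not show that levels were equal.

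The levels of factors that set and protect imprints ranged widely in the same eggs. Of 15 such genes, the highest per length were Dppa3 (2086 FPKM), which shields the maternal genome from demethylation, Zfp57 (676.6 FPKM), whose motif is shown above, and the maintenance methyltransferase Dnmt1 (477.8 FPKM). Zfp445, the other zinc finger protein known to maintain imprints, was the lowest at 3.94 FPKM. In edgeR 0 of 15 passed an adjusted p of 0.05 in each comparison. Dppa3 had 1972, 2121 and 1897 CPM in the GFP High libraries and 1703, 1713 and 1880 CPM in the GFP Low libraries, which did not overlap, with a log2 fold change of 0.18 (SE 0.07, unadjusted p = 0.0201, edgeR adjusted p = 0.998). Between GFP High and GFP Low, the groups did not overlap for 2 of the 15 (13.3%), against 11.5% of all genes tested. Besides Dppa3 this was Uhrf1, lower in GFP High. Dnmt1 was the only one without overlap against RFP, higher in GFP High and in GFP Low. That is 6.67% in each, against 11.8% and 7.68% of all genes. Dppa3 was the only one of the 15 with an unadjusted p under 0.05 (6.67%, against 3.77% of all genes), and it had none in the comparisons with RFP. Of the 12 oocyte markers, 4 also had an unadjusted p under 0.05 in edgeR between GFP High and GFP Low, all higher in GFP High. Their share was 33.3%, and the median log2 fold change over the 12 was 0.14. Between GFP High and RFP, 4 of 12 had one (33.3%, against 4.09% of all genes), all higher in GFP High, with a median of 0.16. Between GFP Low and RFP, 0 of 12 did. The part of these markers in the Dppa3 value was not tested.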

How the data were processed

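Poly-A RNA was fragmented, reverse transcribed from random hexamers and read as paired ends, per the labels' protocols, so transcripts with short tails may be under-represented. The submitters' processing notes name fastp, HISAT2 2.0.5, featureCounts 1.5.0-p3, DESeq2 1.20.0 and the build mm10, without their roles. The deposited tables hold raw counts per gene and the authors' FPKM, whose library constant lay at 0.985 to 1.02 of the summed counts. Both were identical between the tables that share a library. The 3 tables were joined into 30153 genes by 9 libraries, and 178 genes had counts set to 0 where a table lacked them. Counts were tested with edgeR 4.0.16 (R 4.3.3) on the 6 libraries of each comparison: filterByExpr, TMM, quasi-likelihood test, Benjamini-Hochberg adjustment over all genes tested, threshold 0.05. DESeq2 1.42.0, limma-voom (limma 3.58.1), other scalings, other filters and fits without each library were alternatives. FPKM values served only to compare levels between genes. Values per library are given for genes at 5 CPM or more or with an unadjusted p under 0.05. Of the other lists, the 3 highest per length and those with an unadjusted p under 0.05 are named. Further genes were named after their values were seen. Deposited coordinates matched GENCODE M21 (GRCm38) for all listed imprinted genes but Impact. The genes and lists were chosen with earlier results of these data known, and allele and mark classes come from general knowledge of mouse imprinting.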

Additional observations from a re-analysis of the deposited data

How the results depend on the processing

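No imprinted gene was called in any comparison under any alternative run, leaving out each library in turn included (0 to 0), and the largest log2 difference among genes at 5 CPM or more reached 0.66 (GFP High against RFP) and 0.91 (GFP High against GFP Low) without GFP High 2. The count of genes at 1 CPM or more was 23 to 26 without single libraries, 31 at 0.5 CPM, 17 at 1 FPKM and 16 at 5 CPM. The number with an unadjusted p under 0.05 depended on single libraries, running from 0 to 3, from 1 to 2 and from 0 to 6 across such fits for the High to RFP, Low to RFP and High to Low comparisons. The cause was not tested. Without the library of each group with the highest cumulus level, an alternative chosen after seeing the data, 24 genes were at 1 CPM or more, 0 were called, Gnas was at -0.58 and Airn at 2.61. Replicate numbers gave no pairing, with correlations of same-numbered deviations from -0.12 to 0.16 (log2 of CPM plus 1). With the replicate block 0 imprinted genes were called in each comparison, Gnas was at -0.61 and Airn at 2.73 (unadjusted p = 0.111).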

Other observations

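A further 35 imprinted genes that were not in the set above were read from the same libraries, and 34 of them were listed. The highest per length were Th (10.8 FPKM), the tyrosine hydroxylase gene next to Igf2, Kcnq1 (5.97 FPKM), a potassium channel gene that contains Kcnq1ot1, and Trappc9 (5.18 FPKM), a vesicle tethering subunit. In edgeR 0 of 19, 0 of 19 and 0 of 17 tested passed an adjusted p of 0.05 in GFP High against RFP, GFP Low against RFP and GFP High against GFP Low. Snhg14, the long noncoding RNA antisense to Ube3a, had 37, 47 and 63 counts in the GFP High libraries, 7, 1 and 9 counts in the GFP Low libraries and 7, 8 and 23 counts in the RFP libraries. GFP High lay above both other groups, by 3.06 on the log2 scale against GFP Low (SE 1.15, unadjusted p = 0.0235, edgeR adjusted p = 0.998) and by 2.05 against RFP (SE 0.94). Snhg14 was the only one of these genes with an unadjusted p under 0.05 in edgeR. That is 1 of 17 (5.88%) in GFP High against GFP Low, where 3.77% of all genes had one. Zdbf2 lay the other way, GFP High being below both other groups, with a log2 fold change of -0.86 (SE 0.47) against RFP (unadjusted p = 0.1003, edgeR adjusted p = 0.997) and -0.865 (SE 0.50) against GFP Low (unadjusted p = 0.111, edgeR adjusted p = 0.998). Between GFP High and GFP Low, the groups did not overlap for 2 of 17 genes (11.8%), against 11.5% of all genes tested. Between GFP High and RFP the same held for 2 of 19 genes (10.5%), against 11.8% of all genes tested. Ube3a itself differed by -0.05 (SE 0.12) in GFP High against GFP Low.

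Chosen after its values were seen, Slc22a18, which lies next to Cdkn1c and Phlda2, had 80 counts in GFP High 2 and 0 to 8 in the other libraries. Slc38a4, a transporter gene whose imprint rests on H3K27me3, had 4, 13 and 4 counts in the GFP Low libraries and 0 in all GFP High and RFP libraries. The values of 4 are just above the limit of 3 counts. Of all listed genes under 1 CPM, 56.1% were at 0 in all 3 GFP High libraries and 22.8% in all 3 RFP libraries.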
